A study of Arabidopsis thaliana with 6 samples.

Results

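Transcript levels of 10 genes that control or carry out greening were compared between root meristems of Arabidopsis thaliana labelled wild type and labelled papl1-1papl2. The genes were taken by a list of locus identifiers from the 32678 genes of the read count table, and all 10 were in it. They were the transcription factors HY5 (AT5G11260), GLK2 (AT5G44190), GNC (AT5G56860) and CGA1 (AT4G26150), and the chlorophyll synthesis genes HEMA1 (AT1G58290), GUN4 (AT3G59400), CHLH (AT5G13630), CHLI1 (AT4G18480), PORB (AT4G27440) and PORC (AT1G03630). Each group had 3 libraries. The wild type was the accession Col-0 and the other group carried papl1-1 and papl2, also written cog1-6 and cdf4, in genes for Dof zinc finger transcription factors. All seedlings had an age of 5 days and had grown in long days at 23 °C on agar with 0.5-strength MS salts and 1% sucrose. Meristems were dissected by hand, and the 3 replicates of each label with the best RNA were sequenced. The labels do not say whether replicates came from separate plates or days, so p-values measure the spread between these libraries, which may in part be technical.

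Chlorophyll is made in plastids from glutamate, through steps shared with heme. Glutamyl-tRNA reductase, encoded by the HEMA genes, starts the pathway, magnesium chelatase directs protoporphyrin into the chlorophyll branch, and protochlorophyllide oxidoreductase (POR) needs light to complete the chlorin ring. HY5 is a bZIP factor that promotes light responses and is destroyed through COP1 in the dark. GLK factors and the B-class GATA factors GNC and CGA1 promote the expression of chlorophyll synthesis and photosystem genes. Roots exposed to light can form chloroplasts in differentiated tissue, and HY5 and GLK2 are known to be needed for this, while auxin acts against it and cytokinin in favour of it.

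The libraries held 17849704 to 20914576 counts, and levels are given as CPM, the counts of a gene relative to the total of its library, scaled by the trimmed mean of M-values (TMM). A count of 3, taken as the detection floor, was 0.143 to 0.168 CPM, which covers counting error only. As a check of the labels, the locus of COG1 (AT1G29160) had 12.6, 10.9 and 11 CPM in the wild type and 21.8, 20.2 and 16.5 CPM in the libraries labelled papl1-1papl2, and that of CDF4 (AT2G34140) 3.64, 4.56 and 3.86 CPM against 5.50, 6.26 and 6.20 CPM. Neither locus overlapped between the labels, as in 21.5% of tested genes, and both had their higher values in the libraries labelled as mutant. The adjusted p was 0.0137 for AT1G29160 and 0.0952 for AT2G34140 (edgeR quasi-likelihood test). A count per gene cannot tell an intact transcript from a disrupted one, and every direction given here rests on the labels. Markers of the root meristem (PLT1, PLT2, SHR, SCR, CYCB1;1 and WOX5) summed to 218 to 224 CPM in the wild type and 212 to 228 CPM in the papl1-1papl2 libraries. Of 8 shoot and leaf markers, 4 (SPCH, FAMA, FIL and YAB3) had 0 counts in all libraries, and the summed level was 0.572 to 1.63 and 0.503 to 1.16 CPM. Root hair markers (9 genes) summed to 31.8 to 35.1 CPM in the wild type and to 66.4, 42.4 and 11.2 CPM in papl1-1papl2 replicates 1 to 3, so replicate 3 lay below every other library and the other two above them. RHD2 made up most of each sum, at 29.25, 25.49 and 28.67 CPM in the wild type and 49.52, 30.38 and 10.39 CPM in papl1-1papl2. RHD2, COBL9, RSL4 and ADF8 were each lowest in papl1-1papl2 replicate 3, and LRX1 was not. EXPA7, EXPA18, PRP1 and PRP3 had 0 counts in that replicate but also in a wild type library. Because the samples are bulk tissue, fewer cells of a type and less RNA per cell cannot be told apart. Over all tested genes, Pearson's r of log2 CPM between papl1-1papl2 replicates 1 and 2 was 0.9922. Replicate 3 of that label had an r of 0.9775 with replicate 1 and 0.9829 with replicate 2. For comparison, papl1-1papl2 replicate 1 had an r of 0.9815 to 0.9852 with the wild type libraries.

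Upstream sequences are shown for HEMA1, the gene of the 10 with the smallest p, for HEMA2, its paralog with the smallest p among the other genes of the route to chlorophyll, and for CHLH. Among the tested genes of the 10, the levels of CHLH over the 6 libraries had the highest correlation with those of HY5. The 250 bases before the annotated start of each gene were read from the TAIR10.1 assembly, 5′ to 3′ on the strand of the gene. Capitals mark ACGT, the core that HY5 and related bZIP factors recognise.
HEMA1 (chr1:21626403-21626652, minus strand): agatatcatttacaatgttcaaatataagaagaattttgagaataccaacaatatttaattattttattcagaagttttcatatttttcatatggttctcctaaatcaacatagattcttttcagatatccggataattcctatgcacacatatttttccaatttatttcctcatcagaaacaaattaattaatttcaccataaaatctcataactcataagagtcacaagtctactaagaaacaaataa
HEMA2 (chr1:3239555-3239804, minus strand): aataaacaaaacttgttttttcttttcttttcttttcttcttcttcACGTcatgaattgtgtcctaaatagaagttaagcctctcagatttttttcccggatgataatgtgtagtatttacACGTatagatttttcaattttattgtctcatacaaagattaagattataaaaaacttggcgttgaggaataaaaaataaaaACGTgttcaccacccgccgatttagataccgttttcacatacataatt
CHLH (chr5:4392430-4392679, minus strand): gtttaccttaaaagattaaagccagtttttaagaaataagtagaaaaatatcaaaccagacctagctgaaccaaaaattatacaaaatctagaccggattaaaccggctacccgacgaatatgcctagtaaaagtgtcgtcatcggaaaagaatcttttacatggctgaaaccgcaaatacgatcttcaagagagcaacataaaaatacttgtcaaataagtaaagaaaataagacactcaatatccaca
ACGT reads the same on both strands. It occurred 0 times in the windows of HEMA1 and CHLH and 3 times in that of HEMA2. In the windows of the other genes of the set, not shown, it occurred 1 time each for HY5, GNC, GUN4, CHLI1 and PORB. For GLK2, CGA1 and PORC it occurred 0 times. Of 27443 such windows of protein-coding genes, 44.1% held it at least once and 4.43% at least 3 times. The G-box CACGTG, which contains that core, was in none of the 3 windows shown and in 6.49% of all windows. AAAG, the core of Dof binding sites, was counted on both strands and occurred 1 time for HEMA1, 4 times for HEMA2 and 6 times for CHLH, against a median of 4 over all windows. A match is a string of letters and not a binding site.

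None of the 10 genes passed the test between genotypes. Of the 10, 6 had enough counts to be tested, namely HY5, GLK2, HEMA1, CHLH, CHLI1 and PORB, and 0 of these had an adjusted p under 0.05 (edgeR quasi-likelihood test), against 2.76% of all 17720 tested genes. The DESeq2 Wald test also called 0. At an unadjusted p under 0.05, 1 of the 6 passed (HEMA1), against 15.9% of all tested genes. The median log2 fold change was 0.16 over the 6 genes, 4 positive and 2 negative, and 0.00 over all tested genes. With 6 genes, a share of 0 against that background is no result about the set. GNC, CGA1, GUN4 and PORC were left out by the filter on low counts.

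**Figure D1:**
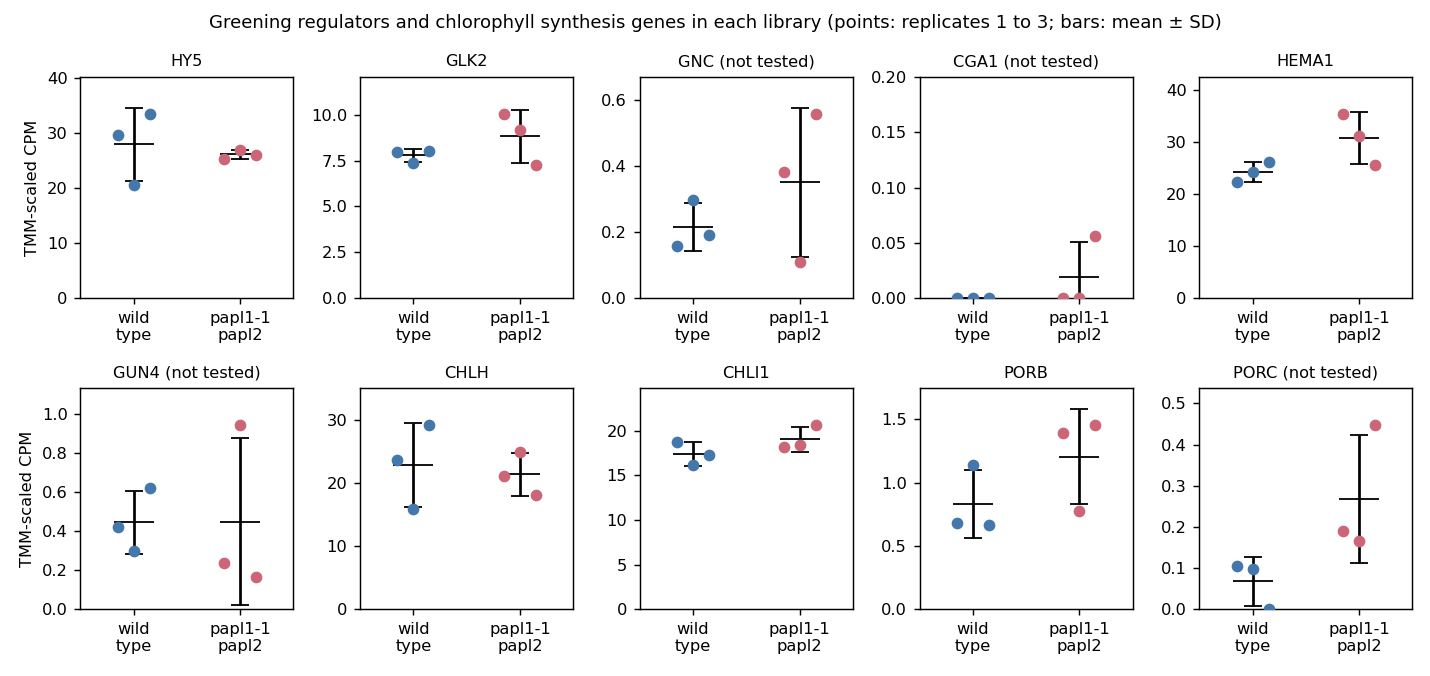
Level of each of the 10 genes in TMM-scaled CPM on axes that start at 0, with 3 wild type (blue) and 3 papl1-1papl2 (red) libraries as points and the mean ± SD as bars. The groups overlap for 9 genes, and for PORC they do not, at 0 to 2 counts against 3 to 8 counts.

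Among the regulators, HY5 was the most abundant. Its level was 29.7, 20.7 and 33.5 CPM in wild type replicates 1 to 3 (28.0 ± 6.60 CPM, SD, n = 3), against 25.4, 27.0 and 26.1 CPM in the papl1-1papl2 libraries (26.2 ± 0.798 CPM, SD, n = 3). The 3 papl1-1papl2 values lay inside the range of the wild type, whose lowest library, replicate 2, had 417 counts and whose highest, replicate 3, had 704. The log2 fold change was -0.10 (SE 0.15, 95% interval -0.43 to 0.24), with an adjusted p of 0.818 (edgeR quasi-likelihood test). Intervals given here are not adjusted for the number of genes. Without wild type replicate 3 the sign turned, at 0.06, and without replicate 2 or any other library the call did not change. HYH (AT3G17609), the close homolog of HY5, was at 11.8, 6.15 and 13.1 CPM in the wild type and 8.95, 8.54 and 5.25 CPM in the papl1-1papl2 libraries. Its groups overlapped, and the log2 fold change of -0.45 (SE 0.28) missed the threshold, with an adjusted p of 0.500 (edgeR quasi-likelihood test).

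GLK2 had 7.96, 7.39 and 8.05 CPM in the wild type (7.80 ± 0.357 CPM, SD, n = 3), against 10.05, 9.15 and 7.26 CPM in the papl1-1papl2 libraries (8.82 ± 1.42 CPM, SD, n = 3). In papl1-1papl2 replicates 1 and 2 the level exceeded that of every wild type library, and in replicate 3 it was below them all. The log2 fold change was 0.18 (SE 0.14, 95% interval -0.13 to 0.49), with an adjusted p of 0.591 (edgeR quasi-likelihood test). Its paralog GLK1 (AT2G20570), which acts with it in leaves, had 10, 3 and 9 counts in the wild type and 8, 4 and 4 in the papl1-1papl2 libraries and was not tested.

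GNC and CGA1, the pair of long-known greening GATA factors, were at the limit of detection in these meristems. GNC had 3, 6 and 4 counts in the wild type and 8, 2 and 10 in the papl1-1papl2 libraries, which is 0.111 to 0.559 CPM. CGA1 had 0 counts in 5 libraries and 1 count in papl1-1papl2 replicate 3. A decrease or a small change in either was not detectable at this depth. With no filter on low counts their adjusted p was 0.721 and 0.721 (edgeR quasi-likelihood test). Other members of the B class were abundant. GATA17L (AT4G16141) had 92.4 to 97.8 CPM in the wild type and 82.5, 82.2 and 99.6 CPM in the papl1-1papl2 libraries, and its groups overlapped. GATA17 (AT3G16870) had 48.9, 41.3 and 45.1 CPM against 34.3, 34.3 and 39.2 CPM. GATA15 (AT3G06740) had 22.1, 21.5 and 22.5 CPM against 18.1, 17.9 and 18.6 CPM. GATA16 (AT5G49300) had 6.96, 5.36 and 6.91 CPM against 4.74, 4.88 and 5.14 CPM. For GATA15, GATA16 and GATA17 every papl1-1papl2 value lay below every wild type value, as it did for 9.8% of all tested genes. The 4 log2 fold changes were -0.12 to -0.38, with a median of -0.30. None passed (edgeR quasi-likelihood test), where the adjusted p was 0.0848 for GATA17, 0.0850 for GATA15, 0.260 for GATA16 and 0.523 for GATA17L. GATA17 passed in the DESeq2 Wald test at an adjusted p of 0.0370. Without papl1-1papl2 replicate 3, GATA17 and GATA17L passed (edgeR quasi-likelihood test) at 0.0129 and 0.0414. The fit without that library called 1164 of 17970 tested genes, against 489 of 17720 with all 6 libraries. The adjusted p of GATA17 ranged from 0.0129 to 0.309 over its alternatives. Root cap markers (SMB, BRN1 and BRN2) summed to 69.1, 70.5 and 74.0 CPM in the wild type and 54.8, 59.0 and 70.5 CPM in papl1-1papl2 replicates 1 to 3, where replicate 3 lay inside the wild type range. Of these 3 genes 0 passed, and their log2 fold changes were -0.26, -0.08 and -0.31. Their part in the GATA values was not tested. GATA23 (AT5G26930), known from lateral root founder cells, had 0 to 2 counts.

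Among the chlorophyll synthesis genes, HEMA1 had the smallest p. Its level was 22.2, 24.3 and 26.1 CPM in the wild type (24.2 ± 1.91 CPM, SD, n = 3), against 35.4, 31.2 and 25.5 CPM in papl1-1papl2 replicates 1 to 3 (30.7 ± 4.96 CPM, SD, n = 3). Replicates 1 and 2 labelled papl1-1papl2 were above every wild type library, and replicate 3 fell within the wild type range. The log2 fold change was 0.34 (SE 0.12, 95% interval 0.08 to 0.61), with an unadjusted p of 0.0164 and an adjusted p of 0.193 (edgeR quasi-likelihood test). Without papl1-1papl2 replicate 3, HEMA1 passed at a log2 fold change of 0.46, its adjusted p being 0.0107 (edgeR quasi-likelihood test). That fit called 1164 of 17970 tested genes, against 489 of 17720 with all 6 libraries. Over all its alternatives the adjusted p of HEMA1 ranged from 0.0107 to 0.485. The library left out is the one with the lowest root hair marker sum (11.2 CPM), most of which was RHD2. Over all tested genes that library was also less like papl1-1papl2 replicates 1 and 2 than these were like each other. The part of these differences was not tested.

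HEMA2 (AT1G09940), a second gene for the same enzyme and known as the form used in roots, had 9.28, 10.4 and 10.4 CPM in the wild type (10.02 ± 0.649 CPM, SD, n = 3), against 15.4, 14.97 and 12.2 CPM in the papl1-1papl2 libraries (14.2 ± 1.72 CPM, SD, n = 3). Its groups did not overlap, as for 11.7% of tested genes in this direction. The log2 fold change was 0.50 (SE 0.12), and at an adjusted p of 0.0567 (edgeR quasi-likelihood test) it missed the threshold. It passed with upper-quartile scaling (0.0458), with no filter (0.0436), in the DESeq2 Wald test (0.0408) and without papl1-1papl2 replicate 3 (0.00643), and its adjusted p reached 0.232 without wild type replicate 1. Over all genes the fits in which HEMA2 passed called 531, 626, 744 and 1164 genes in that order, against 489 in the main fit. HEMA3 (AT2G31250), the third gene of the family, was at 5.85, 5.80 and 4.91 CPM in the wild type and 4.26, 3.83 and 4.64 CPM in the papl1-1papl2 libraries. Its values lay lower in all 3 papl1-1papl2 libraries, as for 9.8% of tested genes, and the log2 fold change of -0.38 (SE 0.15) had an adjusted p of 0.272 (edgeR quasi-likelihood test). Per kilobase of exon, the 3 HEMA genes summed to 17.2, 18.6 and 18.8 CPM in the wild type and 24.8, 22.5 and 19.3 CPM in the papl1-1papl2 libraries. The level patterns most like that of HEMA1 over the 6 libraries, among tested genes with a symbol, were those of MPK17, CBL1, ABCG29, ABCG37 and CDKE;1, with Pearson's r of 0.982 to 0.990 and adjusted p between genotypes of 0.261 to 0.684 (edgeR quasi-likelihood test). Picked as the highest of very many genes over 6 libraries, such r values follow from the selection and are no evidence of a relation to HEMA1.

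**Figure D2:**
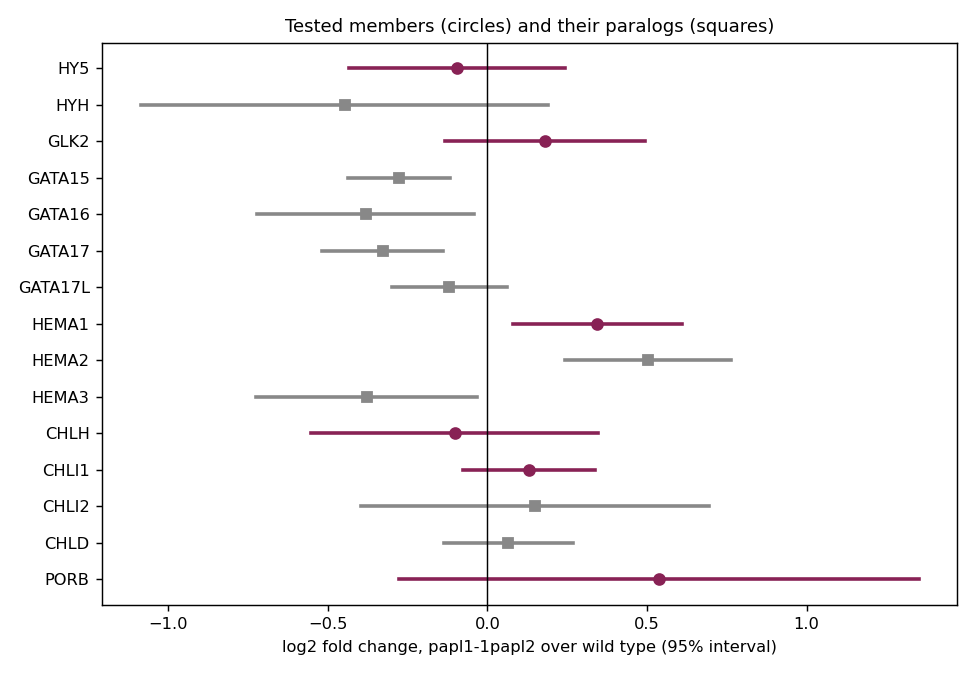
Log2 fold change (papl1-1papl2 over wild type) with its 95% interval, not adjusted for the number of genes, for the 6 tested genes of the set (circles) and their paralogs (squares). The intervals of HEMA1 and HEMA2 lie to the right of 0 and those of HEMA3, GATA15, GATA16 and GATA17 to the left, and none of those shown had an adjusted p under 0.05 (edgeR quasi-likelihood test).

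Magnesium chelatase consists of CHLH, which binds the porphyrin, CHLD, and the ATPase CHLI, and GUN4 stimulates it. CHLH was at 23.7, 15.9 and 29.1 CPM in the wild type (22.9 ± 6.65 CPM, SD, n = 3), against 21.1, 24.8 and 18.04 CPM in the papl1-1papl2 libraries (21.3 ± 3.40 CPM, SD, n = 3). The wild type held both the lowest and the highest value. The log2 fold change was -0.10 (SE 0.20, 95% interval -0.55 to 0.35), with an adjusted p of 0.858 (edgeR quasi-likelihood test), and its sign turned, at 0.11, without wild type replicate 3. CHLI1 varied less, at 18.8, 16.2 and 17.2 CPM in the wild type (17.4 ± 1.303 CPM, SD, n = 3), against 18.1, 18.3 and 20.6 CPM in the papl1-1papl2 libraries (19.0 ± 1.37 CPM, SD, n = 3). The groups overlapped, and with a log2 fold change of 0.13 (SE 0.09, 95% interval -0.08 to 0.34) the adjusted p was 0.552 (edgeR quasi-likelihood test). CHLI2 (AT5G45930), the minor ATPase gene, had 1.43 to 2.18 CPM, and CHLD (AT1G08520) had 17.7 to 21.2 CPM. Their log2 fold changes of 0.15 and 0.06 missed the threshold, with an adjusted p of 0.825 and 0.792 (edgeR quasi-likelihood test).

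GUN4 was close to the floor, with 8, 6 and 13 counts in the wild type and 5, 17 and 3 in the papl1-1papl2 libraries. The highest and the lowest library were both labelled papl1-1papl2. Its exons overlap AT3G59410 on the opposite strand over most of their length, and 71.9% of its stretches of 50 bases occur in that gene. Whether the counting used strand is not stated, so reads of GUN4 may have been dropped or mixed, and its low level is uncertain. CHLI1, PORB and PORC also overlap 1 gene each on the opposite strand, with 4.59%, 1.52% and 0% of such stretches shared, while HY5, GLK2, GNC, CGA1, HEMA1 and CHLH overlap none.

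The POR genes, whose products make chlorophyllide, had low mean levels per kilobase of exon, at 0.620 CPM for PORB, 0.0941 for PORC and 0.0461 for PORA. GUN4, which is no enzyme, lay among them at 0.346, and the next higher gene on this route was CHLI2 at 1.15. PORB had 0.685, 1.14 and 0.667 CPM in the wild type (0.831 ± 0.268 CPM, SD, n = 3), against 1.39, 0.776 and 1.45 CPM in the papl1-1papl2 libraries (1.205 ± 0.373 CPM, SD, n = 3), from 13 to 29 counts. In papl1-1papl2 replicates 1 and 3 PORB was above every wild type library, and in replicate 2 it was not. The log2 fold change of 0.54 (SE 0.36, 95% interval -0.28 to 1.35) had an adjusted p of 0.526 (edgeR quasi-likelihood test), and the interval spans changes in either direction. PORC had 2, 2 and 0 counts in the wild type and 4, 3 and 8 in the papl1-1papl2 libraries. Its groups did not overlap, as for 11.7% of tested genes in this direction, though PORC was itself too low to be among the tested genes. Each wild type value was below the floor, and with no filter on low counts the adjusted p was 0.403 (edgeR quasi-likelihood test). PORA (AT5G54190), known from dark-grown seedlings, had 0, 3 and 0 counts against 3, 2 and 1. Per kilobase, the 3 POR genes together came to 0.477, 0.840 and 0.406 CPM in the wild type and 1.04, 0.633 and 1.17 CPM in the papl1-1papl2 libraries.

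Levels of different genes were set side by side per kilobase of exon, as the mean over 6 libraries. HY5 was highest at 21.6 CPM per kilobase, and its lowest library (16.5) lay above the highest of any other gene of the set. HEMA1 (11.9) and CHLI1 (11.3) followed, with overlapping ranges of 9.62 to 15.3 and 10.06 to 12.8. GLK2 (4.80) and CHLH (4.65) came next and also overlapped. PORB (0.620), GUN4 (0.346), GNC (0.158), PORC (0.0941) and CGA1 (0.00571) were at least several times lower, and neighbours in this order overlapped in their ranges. Along the pathway, the other genes of the steps shared with heme ran from 2.83 (HEMA3) to 23.9 (HEMB1) CPM per kilobase, and the other genes of the chlorophyll branch from 0.0461 (PORA) to 7.09 (CHLD), so the ranges overlapped. The ferrochelatase genes, which make heme, were at 41.6 (FC1) and 5.97 (FC2) CPM per kilobase.

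**Figure D3:**
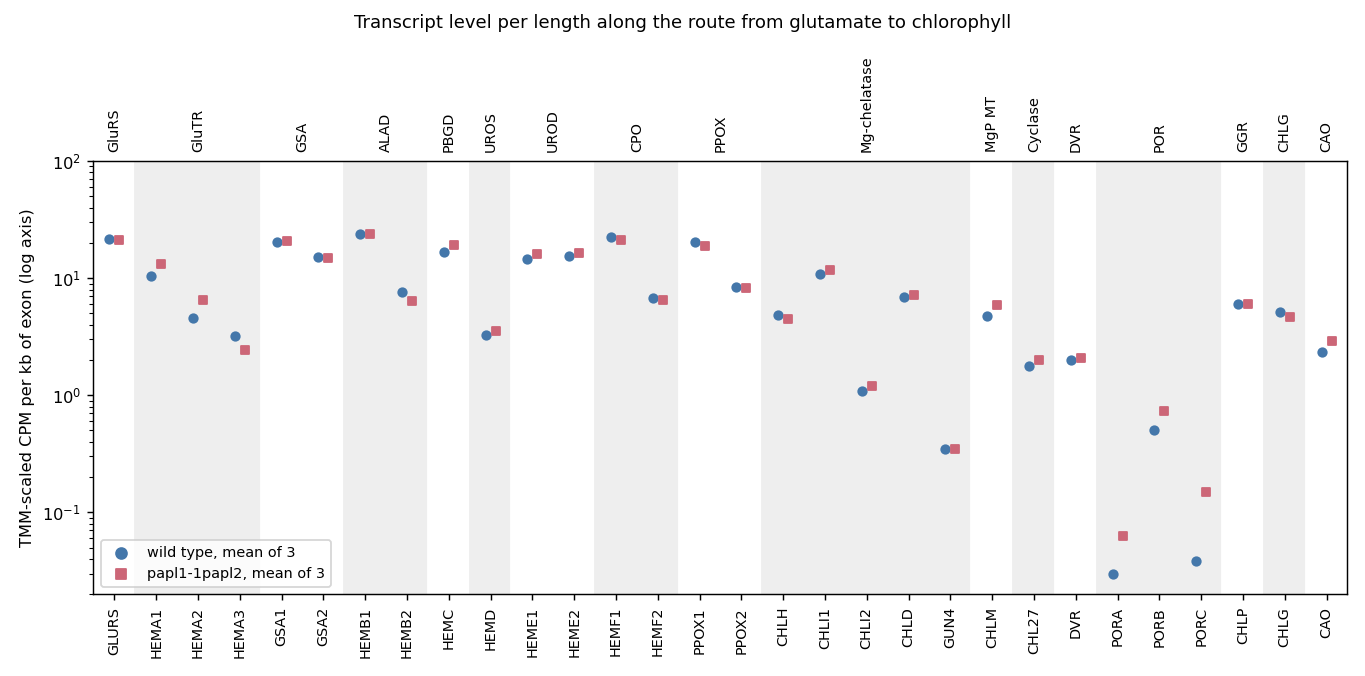
Mean TMM-scaled CPM per kilobase of exon, on a log axis, for each gene from glutamyl-tRNA synthetase (GluRS) to chlorophyll synthase (CHLG) and chlorophyllide a oxygenase (CAO), in wild type (blue circles) and papl1-1papl2 (red squares), each the mean of 3 libraries. Both labels run from HEMB1 near 23.9 down to PORA, PORB and PORC below 1, where PORA and PORC rest on 0 to 8 counts a library.

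Within the wild type, HY5, HYH and CHLH each had their lowest level in replicate 2 and their highest in replicate 3. Within papl1-1papl2 they did not share an order: HY5 and CHLH were highest in replicate 2 and HYH in replicate 1, and HY5 was lowest in replicate 1 and the other two in replicate 3. The lowest HYH level of all 6 libraries, 5.25 CPM, was in papl1-1papl2 replicate 3. Over the 6 libraries, Pearson's r between HY5 and CHLH was 0.908 (exact permutation p = 0.0153) and Spearman's rho was 0.886 (exact permutation p = 0.0333). Adjusted over the 15 pairs of the 6 tested genes, the exact permutation p values were 0.188 and 0.385, so the relation did not pass. Without the 2 libraries farthest from the median of HY5, both wild type, r was 0.549. The next pair, GLK2 and HEMA1, had an r of 0.878 (exact permutation p = 0.025, adjusted 0.188) and a rho of 0.771 (exact permutation p = 0.103, adjusted 0.385). Without papl1-1papl2 replicates 1 and 2, the libraries farthest from the median of GLK2, the r was -0.216. Leaving out the extreme libraries narrows the range and leaves few, so neither this r nor the 0.549 shows where a relation rests. The smallest exact permutation p that 6 libraries allow is 0.00278.

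**Figure D4:**
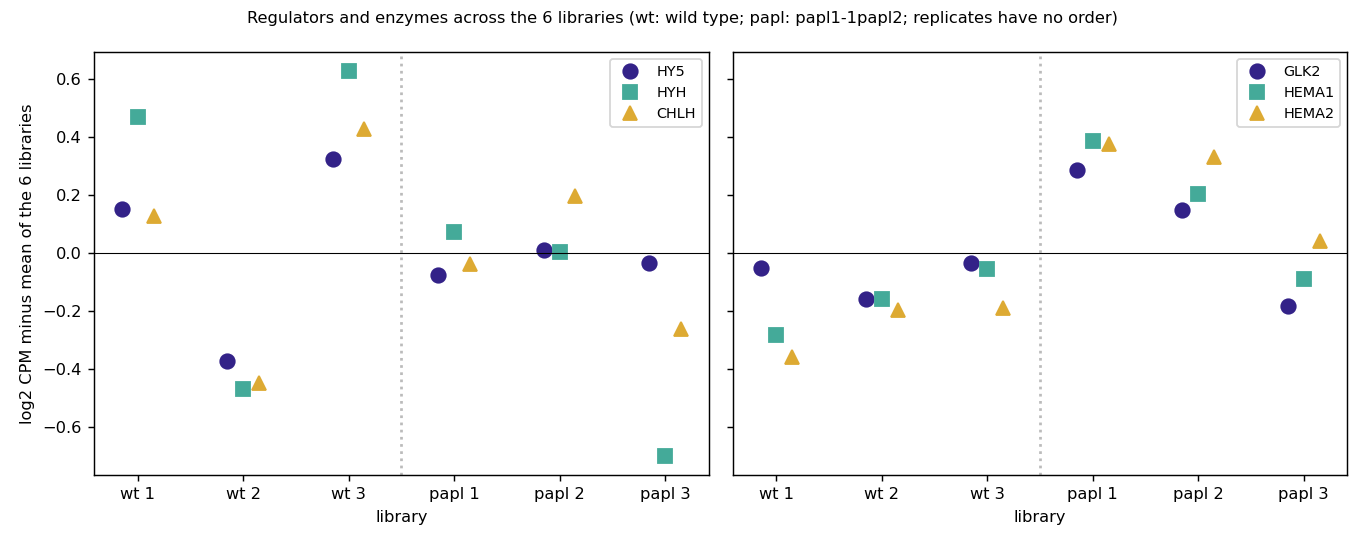
Log2 CPM of each gene minus its mean over the 6 libraries, for HY5, HYH and CHLH (left) and for GLK2, HEMA1 and HEMA2 (right), one marker a library. On the left the wild type libraries spread widely, with replicate 2 the lowest of the wild type for all 3 genes, and on the right papl1-1papl2 replicates 1 and 2 are highest for all 3 genes.

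The rest of the pathway was described by counts over lists. Of the 17 other genes of the steps shared with heme, all were tested and 0 passed (edgeR quasi-likelihood test), against 2.76% of all tested genes, with 2 at an unadjusted p under 0.05, against 15.9% of all tested genes, and a median log2 fold change of -0.01. Of 9 other genes of the chlorophyll branch, 8 were tested and 0 passed, with 1 at an unadjusted p under 0.05 and a median of 0.11. That gene was CHLM (AT4G25080), the magnesium protoporphyrin methyltransferase, at 7.85, 9.37 and 7.19 CPM in the wild type and 9.95, 10.3 and 10.2 CPM in the papl1-1papl2 libraries, with an adjusted p of 0.249. Of 8 genes of the heme and siroheme branches, 6 were tested and 0 passed, with 2 at an unadjusted p under 0.05. The smaller p of these was that of HO1 (AT2G26670), heme oxygenase, which opens the heme ring on the way to the phytochrome chromophore, at 11.5, 12.5 and 10.9 CPM against 15.6, 14.3 and 17.5 CPM. The values of HO1 lay higher in all 3 papl1-1papl2 libraries, as for 11.7% of tested genes, and its log2 fold change of 0.44 (SE 0.11) had an adjusted p of 0.0693 (edgeR quasi-likelihood test). Of 10 chlorophyll breakdown genes, 8 were tested and 0 passed, with 1 at an unadjusted p under 0.05, NYC1 (AT4G13250), a chlorophyll b reductase, with 2.74 to 3.47 CPM in the wild type and 1.91 to 2.51 CPM in the papl1-1papl2 libraries. CHLM, HO1 and NYC1 were picked out by their p.

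Of 21 other regulators of greening, 18 were tested and 0 passed (edgeR quasi-likelihood test), with 5 at an unadjusted p under 0.05, and the median log2 fold change was 0.10. Over all tested genes 2.76% passed and 15.9% had an unadjusted p under 0.05. IAA14 (AT4G14550), an auxin response repressor protein, had the smallest p of these, with 15.1, 13.3 and 17.8 CPM in the wild type and 12.4, 11.2 and 8.66 CPM in the papl1-1papl2 libraries. Its groups did not overlap, as for 9.8% of tested genes in this direction, and the adjusted p was 0.138. GUN1 (AT2G31400), which relays signals from the plastid to the nucleus, had 90.7, 102 and 95.3 CPM against 114, 104 and 115 CPM, and its log2 fold change of 0.21 (SE 0.07) had an adjusted p of 0.160 (edgeR quasi-likelihood test). BBX20 (AT4G39070), a B-box protein that acts with HY5, had 6.53, 5.55 and 7.38 CPM against 14.7, 12.2 and 4.86 CPM. Replicate 3 labelled papl1-1papl2 was the lowest of the 6 libraries and the other two of that label the highest. BBX20 missed the threshold, with an adjusted p of 0.338, but passed without that replicate, at 0.00143 (edgeR quasi-likelihood test). The fit without that replicate called 1164 genes over all, against 489 in the main fit. These 3 genes were chosen after their values were seen. Of 20 light-harvesting protein genes, whose products bind the chlorophyll, 13 were tested and 1 rose, LHCA4 (AT3G47470), whose log2 fold change of 0.51 (SE 0.08) had an adjusted p of 0.0145 (edgeR quasi-likelihood test). Over all genes, 2.76% passed. The list's median was 0.23, with 10 of 13 values positive, against 9009 of 17720 over all tested genes. All stretches of 50 bases of LHCB1.5 occur in other genes, as do 39.9% of those of LHCB2.3 and 23.5% of those of LHCB2.1. LHCA1, LHCA3, LHCB4.1, LHCB4.2 and LHCB5 share none. The stretches of LHCB1.5, LHCB2.1 and LHCB2.3 occur in no other tested gene of the list. LHCB1.2 and LHCB1.3, both tested, share stretches with each other, and their log2 fold changes were -0.22 and 0.10. Signs of genes that share sequence may not be independent, and the share of positive values was not tested. The call of LHCA4 was lost without each wild type library and without papl1-1papl2 replicate 2, where the adjusted p was 0.0561 to 0.0755. LHCA4 overlaps 1 gene on the opposite strand, in which 0.364% of its stretches of 50 bases occur.

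**Figure D5:**
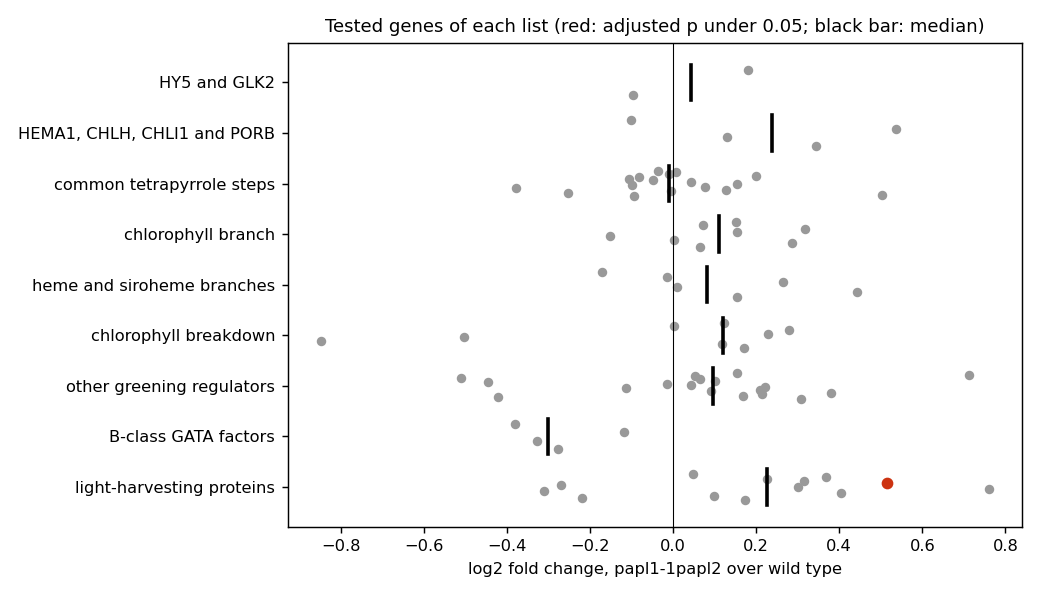
Log2 fold change (papl1-1papl2 over wild type) of every tested gene in each list, one point a gene, with the list's median as a black bar and genes with an adjusted p under 0.05 in red. LHCA4 at 0.51 is the one red point, and of the 9 groups plotted, which leave out the marker lists, the B-class GATA factors are the one with every tested gene below 0.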

How the data were processed

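Raw counts of reads per gene were deposited by the authors as 1 table, with 1 column per library and no normalisation, per the file headers and the whole-number values. The submitters' processing notes name TopHat2, HTSeq, DESeq, DESeq2 and the build TAIR10, without versions, and the use of strand is not given in the sources used here. Libraries were made from poly-A RNA with PCR and no stated molecular identifiers, per the labels' protocols. Columns were matched to samples by genotype word and number, and 0 columns were left unmatched. Symbols, exon lengths and upstream sequences came from RefSeq's TAIR10.1 assembly, whose nuclear chromosomes keep the TAIR10 sequence. Its gene models may differ from those the authors counted on.

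Genes were kept by filterByExpr (minimum count 10, minimum total 15), scaled by TMM and tested with the edgeR 4.0.16 quasi-likelihood test (glmQLFit, glmQLFTest) in R 4.3.3, with genotype as the only term. Benjamini-Hochberg adjustment ran over 17720 genes, with calls under 0.05. Standard errors came from the size of the log2 fold change and the root of its F statistic, and 95% intervals used the moderated degrees of freedom. On simulated counts for these 6 libraries and 17720 genes, 156 of 200 genes changed 2-fold were recovered, with 13 false calls. Smaller changes were not simulated. The tested genes of the set had log2 fold changes of -0.10 to 0.54, so this gives no recovery rate for changes of their size. Alternatives were DESeq2 1.42.0, other scalings and filters, a threshold of 0.01, each library left out and a replicate block. The 10 genes were taken by locus identifier and no value enters that rule, but the set itself, the lists and the rule for naming genes (all 10, their paralogs and any listed gene called) were chosen with earlier results of these data known. A few further genes are said where they appear to have been picked by their values.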

Additional observations from a re-analysis of the deposited data

How the results depend on the processing

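Of the 10 genes, 0 were called in 12 of 13 alternatives, and across the fits that left out 1 library the number was 0 to 1, the 1 being HEMA1 without papl1-1papl2 replicate 3. Among the 74 tested genes of the other lists the number called was 1, against 2 with upper-quartile scaling, 3 with the DESeq2 Wald test, 2 with no filter, 0 under the replicate block, 0 when the threshold was 0.01 and 0 to 6 without 1 library. Over all genes it was 489, against 744 with the DESeq2 Wald test, 259 under the replicate block, 140 when the threshold was 0.01 and 144 to 1164 without 1 library, the most without papl1-1papl2 replicate 3 and the fewest without wild type replicate 1. The sign turned when 1 library was left out for HY5 (-0.28 to 0.056), CHLH (-0.31 to 0.11) and CHLD (-0.012 to 0.11, the negative value without papl1-1papl2 replicate 2). Log2 fold changes of GLK2, HEMA1, CHLI1 and PORB were positive in every alternative in which the gene was tested. The labels state no plants or day shared by same-numbered libraries, so the numbers were not taken as pairs in the main fit. Such libraries also did not deviate together from their group means, with correlations of -0.00913, -0.0601 and -0.107 across genes. For each of the shifts between alternatives the cause was not tested. Low counts limit GNC, CGA1, GUN4 and PORC, which had 0 to 17 counts a library. For GUN4, depth and the overlap with AT3G59410 cannot be told apart.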
